A study of Homo sapiens with 12 samples.

Results

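The comparison set HCT116 cells treated with 100 nM dolastatin 15 for 24 h against HCT116 cells given the solvent for 24 h, with 2 libraries in each group. These 4 libraries, of 12 in the series, were chosen by the dose and time that the columns of the table name, and every one of the 58174 genes of the table belongs to the comparison. HCT116 is an established human colorectal carcinoma line, and dolastatin 15 is a peptide first isolated from a sea hare that binds tubulin and stops microtubules from assembling. In all groups the cells had been seeded in DMEM with 5% serum, the solvent was DMSO kept at 0.25%, and the treatments were made in duplicate. Poly(A)-selected RNA was sequenced, and the deposited values are FPKM, the fragments of a gene per length of its transcripts and per depth of its library. Libraries are numbered as in the table: 9 and 10 received 100 nM and 11 and 12 received solvent, both for 24 h. The groups set beside them were 20 nM for 24 h (libraries 7 and 8), 100 nM for 16 h (3 and 4) and solvent for 16 h (5 and 6). Nothing in the labels says that the duplicates were separate cultures. The p-values therefore measure the spread between duplicate libraries alone, and that spread may be technical. It was taken over all 12 libraries of the series, the 20 nM libraries of 16 h (1 and 2) among them.

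Microtubules are polymers of alpha- and beta-tubulin that build the mitotic spindle. A dividing cell without a working spindle is held in mitosis by the spindle assembly checkpoint, and it may later die or leave mitosis without dividing. Animal cells also tie tubulin synthesis to the pool of free subunits: when subunits are in excess, tubulin mRNAs are destroyed while being translated, after the start of the growing protein is recognised.

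The summed FPKM of the 4 libraries ran from 911720.3 to 989986, and between 20985 and 21438 genes were above 0. The mitochondrial genome gave 18.8% and 20.7% of that sum at 100 nM and 17.9% and 18.6% in solvent. Read depth is unknown, because FPKM keeps no counts. The epithelial marker EPCAM was at 250.6 to 297 FPKM over the 4 libraries and the colon factor CDX2 was detected, but 10 of 34 epithelial genes never reached 1 FPKM, the intestinal genes KRT20 and VIL1 among them, and the colon genes CDX1 and CEACAM5 were listed at 0. Of 17 mesenchymal markers 12 never reached 1 FPKM, and their summed level was 103 and 102 FPKM at 100 nM and 100.1 and 101 in solvent. Of 12 immune markers 9 never reached 1 FPKM, PTPRC, CD3D, MS4A1 and FCGR3A were at 0 in all 4 libraries, and the sum was 19.1 and 16.2 FPKM at 100 nM against 12.4 and 13.1 in solvent. Of 8 endothelial markers 7 never reached 1 FPKM.

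The question was which genes differed from solvent after 24 h at the higher dose. Of 13458 genes with enough expression to test, 4550 passed limma at a Benjamini-Hochberg adjusted p under 0.05, which is 33.8% of those tested. Of these 2075 (15.4%) were higher at 100 nM and 2475 (18.4%) lower. These shares are the background for the counts of each gene list. The groups overlapped in none of the 4550, but the share without overlap among all tested genes was not counted. Absence of overlap, where given below, is therefore a description and no added support. Most changes were small: the median size among called genes was 0.35 on the log2(FPKM + 1) scale, and 115 genes changed by at least 1, 64 of them higher and 51 lower. The median over all tested genes was -0.02. The split depended on scaling. It was 1146 higher and 3728 lower when each library was rescaled to a common sum, where the median of all genes became -0.11, and with median-of-ratios scaling it was 2471 and 2174. Leaving out library 9, 10, 11 or 12 left 2757, 3048, 2996 and 2953 genes called. Log2 changes below are differences of mean log2(FPKM + 1), which understate the change of low genes, and "rose" and "fell" are used only for genes that passed this test.

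Tubulin genes were among the largest falls by level. Of 15 tested, 2 rose, 8 fell and 5 did not pass the test, with a median log2 change of -0.19. Besides alpha- and beta-tubulins, the list held gamma-tubulin TUBG1, which fell (-0.17), and delta- and epsilon-tubulin (TUBD1 and TUBE1), which were not called. TUBA1C, an alpha-tubulin (chromosome 12, 49188736 to 49274603), was at 658 and 694 FPKM at 100 nM and 1474 and 1473 FPKM in solvent, 2.18-fold lower (log2 change -1.12, SE 0.04, adjusted p = 7.23e-07). TUBB, the main beta-tubulin here (chromosome 6, 30720201 to 30725426), was at 562 and 590.3 FPKM at 100 nM and 1043 and 1069.9 FPKM in solvent (log2 change -0.87, SE 0.04, adjusted p = 2.31e-06). Both treated libraries were well below both solvent libraries for each gene. TUBB4B (-0.57), TUBA1A (-0.49) and TUBA1B (-0.37), the most abundant alpha-tubulin, fell by less, as did beta-tubulins TUBB4A (-0.35) and TUBB3 (-0.19). Beta-tubulin TUBB6 went the other way, at 206 and 203 FPKM at 100 nM and 178 and 178 FPKM in solvent (log2 change 0.20, SE 0.03, adjusted p = 0.00272), and TUBB2A, another beta-tubulin, was at 115 and 115 FPKM at 100 nM and 105 and 102 FPKM in solvent (log2 change 0.15). The call for TUBB2A ended without library 9, 10, 11 or 12 (0.129, 0.121, 0.0715 and 0.176 in turn), with the 24 h libraries only (0.098), with a constant prior (0.0669), without the filter on low values (0.063), after rescaling over nuclear genes (0.161) and after rescaling to a common sum (0.438), adjusted p in parentheses. Near-identical tubulin copies may share reads, so the level of each copy is uncertain.

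The first coding bases are shown for tubulins that fell (TUBB, TUBB4B and TUBA1C, whose first 30 bases are those of TUBA1A and TUBA1B too) and that rose (TUBB6 and TUBB2A), because the start of the nascent protein is what the decay pathway reads. Capitals mark the first 4 codons, 12 of the 30 bases shown, from GENCODE 29 transcripts on GRCh38.
TUBB: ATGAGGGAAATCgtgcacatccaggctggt
TUBB4B: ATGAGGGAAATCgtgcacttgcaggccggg
TUBA1C: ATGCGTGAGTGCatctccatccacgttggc
TUBB6: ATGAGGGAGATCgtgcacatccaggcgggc
TUBB2A: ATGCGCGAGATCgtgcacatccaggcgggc
The beta-tubulins that fell and those that rose, of which TUBB2A lost its call under other settings, had near-alike coding starts. Whether the decay pathway had a part in either change was not tested.

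**Figure D1:**
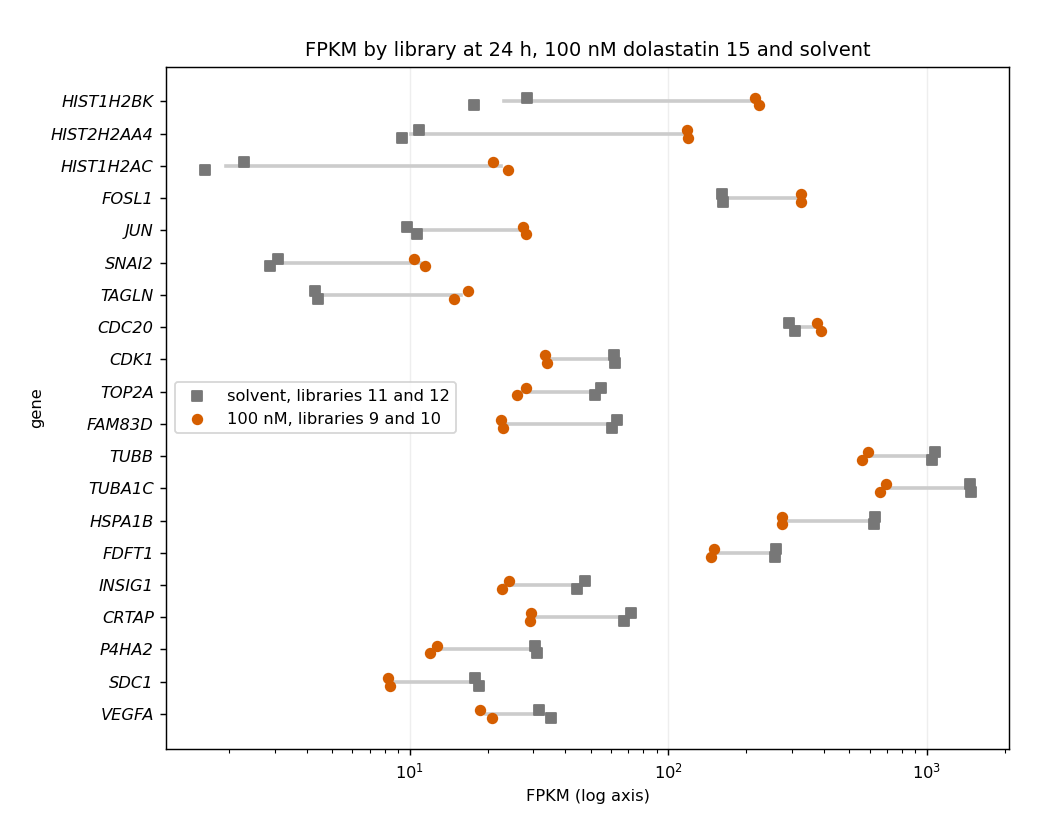
FPKM (horizontal log axis) of 20 of the genes described, with squares for solvent (libraries 11 and 12), circles for 100 nM (libraries 9 and 10), both at 24 h, and a grey line joining the group means. TUBB and TUBA1C sit to the left of solvent at 100 nM, and HIST2H2AA4 sits 11.8-fold to the right. All 20 were called genes, and the groups overlap for none of them.

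Factors of tubulin decay and folding changed less. Of 24 tested, 7 rose, 2 fell and 15 did not pass the test (median 0.08, but -0.01 with 1 rose and 5 fell after rescaling to a common sum). The number called was 4, 4, 4 and 3 without library 9, 10, 11 and 12 in turn. TTC5, which recognises nascent tubulin, was at 16.8 and 16.4 FPKM at 100 nM and 16.9 and 15.5 FPKM in solvent and was not called (log2 change 0.03, SE 0.12, adjusted p = 0.858). The folding cofactor TBCB rose from 159 and 156 FPKM in solvent to 193 and 190.0 FPKM at 100 nM (log2 change 0.28). Among 27 microtubule-associated genes, 3 rose, 9 fell and 15 did not pass the test (median -0.15). CKAP5, a microtubule polymerase, was at 42.1 and 45.5 FPKM at 100 nM and 80.2 and 76.9 FPKM in solvent (log2 change -0.83, SE 0.05, adjusted p = 9.53e-06). The dynein heavy chain DYNC1H1 (-0.59), the tubulin carboxypeptidase VASH1 (-0.61), the neuronal-type microtubule protein MAP1B (-0.60) and the tubulin-binding protein STMN1 (-0.30) fell as well. The plus-end protein MAPRE1 rose (0.28), while MAP4, a microtubule-binding protein, was not called (-0.13, adjusted p = 0.0635).

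Most genes of mitosis that changed were lower at 24 h. Among 39 genes of mitotic entry and exit, 6 rose, 22 fell and 11 did not pass the test (median -0.21), and among 48 genes of mitotic chromosomes, spindle and cytokinesis, 3 rose, 27 fell and 18 did not pass the test (median -0.27), beside 15.4% and 18.4% of all genes. In RNA from whole cultures, fewer cells in a phase and less RNA per cell cannot be told apart. FAM83D, which brings casein kinase to the spindle (chromosome 20, 38926312 to 38953106), was at 22.9 and 22.5 FPKM at 100 nM and 60.6 and 63.1 FPKM in solvent, 2.72-fold lower (log2 change -1.41, SE 0.04, adjusted p = 5.32e-07). CDK1, the kinase that drives entry into mitosis (chromosome 10, 60778331 to 60794852), was at 34.0 and 33.3 FPKM at 100 nM and 62.3 and 61.5 FPKM in solvent (log2 change -0.86, SE 0.05, adjusted p = 1.53e-05). UBE2C, the conjugating enzyme of the anaphase-promoting complex, was at 169 and 174 FPKM at 100 nM and 334 and 359 FPKM in solvent (log2 change -1.01, SE 0.04, adjusted p = 1.44e-06). None of these groups overlapped. Falls of similar size were seen for ARL6IP1 (-1.10), a membrane-shaping protein of the endoplasmic reticulum, the CDK1 activator CDC25C (-1.06), the CDK subunit CKS1B (-0.998), the chromosomal passenger kinase AURKB (-0.96), the DNA untangling enzyme TOP2A (-0.96), the spindle protein NUSAP1 (-0.85) and the kinesin KIF11 (-0.53).

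Not all mitotic genes fell. CDC20, an activator of the anaphase-promoting complex, was at 389 and 377 FPKM at 100 nM and 308 and 293 FPKM in solvent (log2 change 0.35, SE 0.06, adjusted p = 0.00343), and UBE2S, the enzyme that extends ubiquitin chains for that complex, was at 1359 and 1364 FPKM at 100 nM and 1146 and 1127 FPKM in solvent (log2 change 0.26, SE 0.04, adjusted p = 0.00202). CDC25A, a phosphatase that activates CDKs, rose too (0.53). CCNB1, cyclin B1, was at 328 and 323 FPKM at 100 nM and 289.9 and 292 FPKM in solvent (log2 change 0.16), and its call ended without library 9, 10, 11 or 12 (0.088, 0.0585, 0.0771 and 0.0622 in turn), after rescaling over nuclear genes (0.0829) and after rescaling to a common sum (0.223), adjusted p in parentheses. Thus CCNB1 stood slightly higher and its partner CDK1 lower in the same libraries. FOXM1, a transcription factor of mitotic genes, was at 111 and 111 FPKM at 100 nM and 112 and 110.2 FPKM in solvent and was not called (log2 change -0.01, SE 0.04, adjusted p = 0.894). Among 23 cell-cycle transcription factors, 3 rose, 6 fell and 14 did not pass the test (5 without library 10 called), and E2F5 (-0.70), the retinoblastoma relative RBL2 (-0.41) and the chromatin protein RBBP4 (-0.44) fell.

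Promoters of a mitotic gene that fell, TOP2A, and one that rose, CDC20, are shown for the 200 bases before the start site (RefSeq, GRCh38.p14). Capitals mark TTTGAA, the cell cycle homology region form, and CCAAT, each on either strand, so TTCAAA and ATTGG are the same motifs on the other strand.
TOP2A (chr17:40417897-40418096, minus strand): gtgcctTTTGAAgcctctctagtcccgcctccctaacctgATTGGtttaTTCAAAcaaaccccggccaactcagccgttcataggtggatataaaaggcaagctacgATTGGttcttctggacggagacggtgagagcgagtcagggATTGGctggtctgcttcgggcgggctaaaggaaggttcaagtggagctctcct
CDC20 (chr1:43358781-43358980, plus strand): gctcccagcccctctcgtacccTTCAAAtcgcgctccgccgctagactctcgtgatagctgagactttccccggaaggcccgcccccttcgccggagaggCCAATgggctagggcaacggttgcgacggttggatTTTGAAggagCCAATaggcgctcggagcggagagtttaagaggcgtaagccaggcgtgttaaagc
Both stretches held TTTGAA more than once. Over windows of 300 bases around the start, 9.17% of the 9919 tested genes with a window held TTTGAA on either strand, 8.31% of those called higher and 9.77% of those called lower. In the mitotic lists it was held by 29 of 42 that fell (69%), 3 of 7 that rose (42.9%) and 15 of 24 that did not pass (62.5%). The motif was thus common in mitotic genes whether or not they fell.

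Genes of DNA replication were called about as often as all genes. Of 51 tested, 10 rose, 10 fell and 31 did not pass the test, which is 19.6% higher and 19.6% lower beside 15.4% and 18.4% of all genes (median 0.01, but -0.09 with 6 rose and 17 fell after rescaling to a common sum). The number called was 11, 12, 13 and 10 without library 9, 10, 11 and 12 in turn. The replication licensing genes ORC1, at 33.4 and 31.5 FPKM at 100 nM and 25 and 26.2 FPKM in solvent (log2 change 0.33, SE 0.05, adjusted p = 0.00137), and ORC6 (0.32) rose, as did GINS3 (0.47) of the replicative helicase. POLA1 (-0.29), the catalytic subunit of the priming polymerase, and the fork protein TIMELESS (-0.32) fell. PCNA, the sliding clamp, was at 336 and 329 FPKM at 100 nM and 324 and 332 FPKM in solvent and was not called (log2 change 0.02, SE 0.04, adjusted p = 0.757). The E2F form TTCCCGC was held by 19 of 45 replication promoters (42.2%) against 10.6% of all on either strand.

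Among 14 G1/S cyclins and inhibitors, 3 rose, 3 fell and 8 did not pass the test, close to the shares of all genes (21.4% higher and 21.4% lower, beside 15.4% and 18.4%). CCNE2, cyclin E2 of the step into S phase, was at 52.5 and 59.7 FPKM at 100 nM and 39.2 and 32.8 FPKM in solvent (log2 change 0.63, SE 0.10, adjusted p = 0.00182). The CDK4 and CDK6 inhibitor CDKN2D was at 15.8 and 15.9 FPKM at 100 nM and 8.81 and 6.48 FPKM in solvent (log2 change 0.97, SE 0.15, adjusted p = 0.00134). CDK6 itself (-0.54) and the CDK inhibitor CDKN1C (-0.85) fell. CDKN1A, the p53-inducible CDK inhibitor, was low, at 7.6 and 7.50 FPKM at 100 nM and 6.44 and 7.74 FPKM in solvent, and was not called (log2 change 0.08, SE 0.09, adjusted p = 0.506), nor was CCND1, cyclin D1 (0.01, adjusted p = 0.96). Among 18 genes of deoxynucleotide supply, 4 rose, 5 fell and 9 did not pass the test (4 without library 11 called). Of those 18 genes 22.2% were higher and 27.8% lower, beside 15.4% and 18.4% of all genes. The nucleoside transporter SLC29A1 was at 46.0 and 49.1 FPKM at 100 nM and 95.2 and 93.3 FPKM in solvent (log2 change -0.97, SE 0.04, adjusted p = 2.68e-06), and the dNTP-degrading enzyme SAMHD1 fell (-0.49), while the ribonucleotide reductase subunit RRM2 (0.27) and DCTPP1 (0.40), which clears damaged dCTP, rose. Among 26 homologous recombination and Fanconi genes, 3 rose, 11 fell and 12 did not pass the test (median -0.18, 7, 7, 8 and 7 without library 9, 10, 11 and 12 in turn called). FANCD2 (-0.42) and the meiotic recombination factor MND1 (-0.47) fell, and the recombination proteins PALB2 (0.40) and RAD51C (0.30) rose.

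The largest increases among protein-coding genes were those of histone genes. Of 71 replication-dependent histone genes in the table, 25 were tested, of which 15 rose, 0 fell (0 at an unadjusted p under 0.05) and 10 did not pass the test. Because a gene could enter the test through its treated libraries alone, this count is no measure over all members. Of the 25, 15 reached 1 FPKM in at least 2 of the 4 solvent libraries of both times, and of those 15, 9 rose and 0 fell. Another 7 of the 25 were under 1 FPKM in all 4 solvent libraries. HIST2H2AA4, an H2A gene (chromosome 1, 149851061 to 149851624), was at 119.6 and 118 FPKM at 100 nM and 9.35 and 10.8 FPKM in solvent, 11.8-fold higher (log2 change 3.43, SE 0.10, adjusted p = 4.4e-07). HIST1H2BK, an H2B gene (chromosome 6, 27146418 to 27146798), was at 225 and 216 FPKM at 100 nM and 17.7 and 28.5 FPKM in solvent (log2 change 3.24, SE 0.19, adjusted p = 9.53e-06). HIST1H2BC, another H2B gene, was at 24.96 and 22.8 FPKM at 100 nM and 1.55 and 1.16 FPKM in solvent (log2 change 3.40, SE 0.14, adjusted p = 1.81e-06). In each, the 100 nM libraries lay close together and far above solvent. HIST1H2AC (3.0), HIST2H2BE (2.77), the linker histone HIST1H1C (2.37), HIST1H2BD (2.31), HIST1H2BJ (2.26) and HIST1H2BO (2.25) rose as well. HIST1H4C, an H4 gene, was at 7.55 and 7.02 FPKM at 100 nM and 4.86 and 7.13 FPKM in solvent and HIST2H2AC, an H2A gene, at 3.67 and 2.73 FPKM at 100 nM and 5.90 and 3.90 FPKM in solvent, and neither was called (adjusted p = 0.482 and 0.291). The summed level of the whole histone list was 552 and 532 FPKM at 100 nM against 81.4 and 89.0 in solvent. The replication-independent histone H3F3B rose from 2332 and 2306 FPKM in solvent to 3008 and 2954 FPKM at 100 nM (log2 change 0.36).

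Most replication-dependent histone mRNA ends in a stem-loop without a poly(A) tail, and several H2A, H2B and H1 genes can also make polyadenylated transcripts, so poly(A) selection bears on these levels, and its part was not tested. Histone copies are near-identical, and the share of reads given to each is uncertain. The promoters of 3 of the strongest increases are shown for the 200 bases before the start site (RefSeq, GRCh38.p14). Capitals mark CCAAT and the octamer ATTTGCAT, each on either strand (ATTGG and ATGCAAAT on the other), and the octamer was chosen after the values were seen.
HIST1H2BK (chr6:27146859-27147058, minus strand): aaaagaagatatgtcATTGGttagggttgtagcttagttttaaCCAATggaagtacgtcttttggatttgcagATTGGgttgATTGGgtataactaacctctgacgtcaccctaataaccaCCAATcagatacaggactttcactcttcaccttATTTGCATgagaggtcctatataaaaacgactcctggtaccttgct
HIST1H2AC (chr6:26123972-26124171, plus strand): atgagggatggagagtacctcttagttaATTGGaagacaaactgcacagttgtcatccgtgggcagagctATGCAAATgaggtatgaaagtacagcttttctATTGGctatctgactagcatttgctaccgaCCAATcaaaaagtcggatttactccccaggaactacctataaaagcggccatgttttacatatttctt
HIST2H2BE (chr1:149886683-149886882, minus strand): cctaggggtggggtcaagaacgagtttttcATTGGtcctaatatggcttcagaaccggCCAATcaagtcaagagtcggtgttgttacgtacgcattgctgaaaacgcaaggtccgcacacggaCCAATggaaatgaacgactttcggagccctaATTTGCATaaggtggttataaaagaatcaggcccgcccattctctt
The octamer was held by 8 of 15 histone windows that rose (53.3%) and 2 of 7 that did not pass (28.6%), against 1.28% of all windows on either strand. Of those 15 genes, 5 were under 1 FPKM in all 4 solvent libraries of both times, HIST2H2BE among them. They entered the test through treated libraries alone, so the share among genes that rose is no measure over all histone genes. CCAAT was held by 86.4% of histone windows and 37% of all. HIST1H2AC and HIST1H2BC are neighbours read in opposite directions, and their windows share 255 bases, so these are not independent promoters.

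AP-1 and immediate early genes were mostly higher. Of 28 tested, 22 rose, 4 fell and 2 did not pass the test, with a median log2 change of 0.66 against -0.02 for all genes. Of the 22, 3 were under 1 FPKM in all 4 solvent libraries of both times and entered the test through treated libraries alone. JUN, an AP-1 subunit, was at 28.2 and 27.4 FPKM at 100 nM and 10.7 and 9.77 FPKM in solvent, 2.72-fold higher (log2 change 1.36, SE 0.06, adjusted p = 1.81e-06). Its partner FOSL1 was at 326 and 325 FPKM at 100 nM and 162 and 162 FPKM in solvent (log2 change 1.002, SE 0.05, adjusted p = 2.78e-06). FOSB, another AP-1 subunit, was at 12.6 and 11.1 FPKM at 100 nM and 2.98 and 2.91 FPKM in solvent (log2 change 1.70, SE 0.14, adjusted p = 6.36e-05). FOSL1 was the most abundant of these AP-1 subunits, and its treated libraries agreed within 1 FPKM. The early growth response factors EGR1 (1.2) and EGR3 (1.021), the survival factor IER3 (0.62) and MYC (0.27) also rose, whereas KLF2 (-0.72), a transcription factor, and BTG2 (-0.48), an antiproliferative factor, fell.

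**Figure D2:**
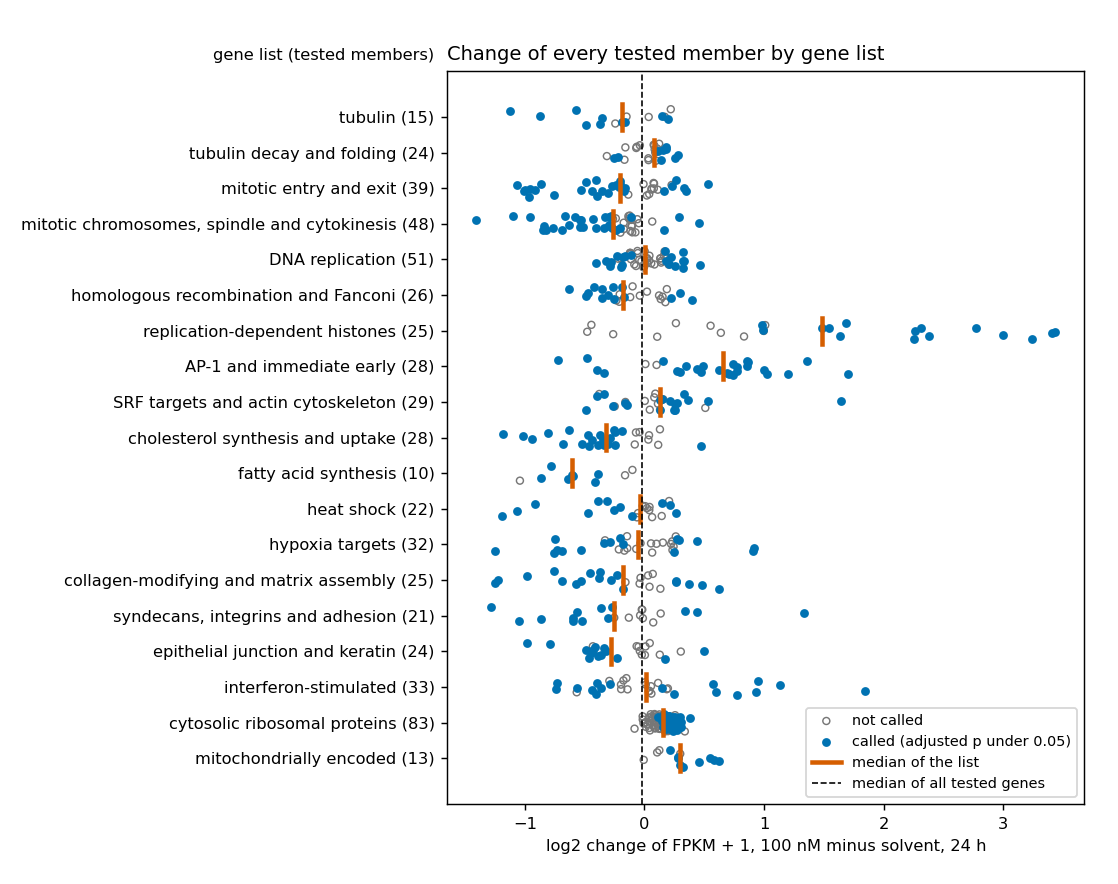
Log2 change of FPKM + 1 (100 nM minus solvent at 24 h, horizontal axis) of every tested member of 19 gene lists, filled where called, with an orange bar at the median of the list and a dashed line at the median of all tested genes. Histones reach furthest to the right, and the median of fatty acid synthesis lies furthest to the left, at -0.60.

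Genes downstream of ERK were mixed: of 20 tested, 7 rose, 4 fell and 9 did not pass the test (6 rose and 5 fell after rescaling to a common sum). The ERK feedback inhibitor SPRY2 rose (0.55) while its relative SPRY4 (-0.42), the ETS factor ETV4 (-0.32) and PHLDA1 (-0.28), an ERK-inducible protein, fell. DUSP6, an ERK phosphatase, was at 33.2 and 33.1 FPKM at 100 nM and 34.6 and 32.4 FPKM in solvent and was not called (log2 change -0.01, SE 0.08, adjusted p = 0.913). Among 29 SRF targets and actin genes, 12 rose, 6 fell and 11 did not pass the test, but 6 rose and 7 fell after rescaling to a common sum. TAGLN, an actin-binding protein of contractile cells, was at 14.8 and 16.7 FPKM at 100 nM and 4.43 and 4.30 FPKM in solvent (log2 change 1.64, SE 0.11, adjusted p = 1.81e-05). The myosin light chain MYL9 was at 76.8 and 78.4 FPKM at 100 nM and 53.6 and 53.5 FPKM in solvent (log2 change 0.53, SE 0.06, adjusted p = 0.000392). The tropomyosins TPM4 (0.36) and TPM2 (0.33) rose, and the focal adhesion proteins VCL (-0.49) and ACTN1 (-0.34) and the small GTPase RHOB (-0.40) fell. Among 22 YAP and TEAD targets, 4 rose, 9 fell and 9 did not pass the test (median -0.24). AMOTL2 (-0.43) and AJUBA (-0.49), both regulators of the Hippo pathway, the guanine exchange factor ARHGEF17 (-0.88) and the membrane protein CRIM1 (-0.45) fell, and tissue factor F3 (0.34) and the ectonucleotidase NT5E (0.33) rose.

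Genes of cholesterol and fatty acid synthesis were lower. Of 28 cholesterol genes tested, 1 rose, 20 fell and 7 did not pass the test (median -0.32), and of 10 genes of fatty acid synthesis, 0 rose (0 at an unadjusted p under 0.05), 7 fell and 3 did not pass the test (median -0.60). STARD4, a cholesterol transfer protein (chromosome 5, 111496033 to 111512590), was at 7.07 and 7.73 FPKM at 100 nM and 18.8 and 17.4 FPKM in solvent (log2 change -1.19, SE 0.07, adjusted p = 9.91e-06). INSIG1, a sterol-regulated brake on the pathway, was at 22.8 and 24.1 FPKM at 100 nM and 44.3 and 47.4 FPKM in solvent (log2 change -0.94, SE 0.08, adjusted p = 7.38e-05). FDFT1, squalene synthase, was at 146 and 149.9 FPKM at 100 nM and 258 and 262 FPKM in solvent (log2 change -0.81, SE 0.04, adjusted p = 2.78e-06). Treated libraries were below solvent in all 3. In fatty acid synthesis, the desaturases SCD (-0.60), FADS1 (-0.86) and FADS2 (-0.60), the citrate-cleaving enzyme ACLY (-0.64), fatty acid synthase FASN (-0.39) and malic enzyme ME1 (-0.78) fell.

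HIF1A and EPAS1, the alpha subunits, were not called. HIF1A, the oxygen-regulated subunit, was at 59.6 and 63.0 FPKM at 100 nM and 60.4 and 68.7 FPKM in solvent (log2 change -0.07, SE 0.14, adjusted p = 0.737), and EPAS1, which encodes HIF-2 alpha, was at 7.59 and 7.49 FPKM at 100 nM and 7.65 and 8.83 FPKM in solvent (log2 change -0.11, SE 0.23, adjusted p = 0.748). Of 16 subunits and oxygen sensors, 1 rose, 3 fell and 12 did not pass the test (6.25% higher and 18.75% lower, beside 15.4% and 18.4% of all genes). Of the 3, 1 was under 1 FPKM in the 100 nM libraries of both times and the 20 nM libraries of 24 h. It entered the test through other libraries. HIF1AN, the asparagine hydroxylase that restrains HIF (-0.68), was lower, and ELOC, a subunit of the VHL ubiquitin ligase (0.48), higher. The beta subunit ARNT2 was near 1 FPKM and lower (-0.36), and its call ended without library 9, 10, 11 or 12 (0.122, 0.0951, 0.103 and 0.12 in turn), with the 24 h libraries only (0.0794), without the filter on low values (0.0507) and with only the libraries compared (0.053), adjusted p in parentheses. Of 32 hypoxia targets, 6 rose, 10 fell and 16 did not pass the test (median -0.05). Of the 10, 1 was under 1 FPKM in the same 100 nM and 20 nM libraries. VEGFA, the vascular growth factor (chromosome 6, 43770184 to 43786487), was at 20.8 and 18.7 FPKM at 100 nM and 35.2 and 31.6 FPKM in solvent (log2 change -0.73, SE 0.10, adjusted p = 0.000747). P4HA2, a collagen prolyl hydroxylase, was at 11.99 and 12.8 FPKM at 100 nM and 31.1 and 30.6 FPKM in solvent (log2 change -1.25, SE 0.09, adjusted p = 2.13e-05). LOXL2 (-0.75), which cross-links collagen, fell as well, while the secreted hormone STC2 (0.90), pyruvate dehydrogenase kinase PDK1 (0.54) and the atypical kinase RIOK3 (0.43) rose. The hypoxia response element core, GCGTG or ACGTG on either strand, was held by 84% of hypoxia target windows and 64.5% of all. Of 23 glycolysis genes, 5 rose, 5 fell and 13 did not pass the test, close to the shares of all genes (21.7% higher and 21.7% lower, beside 15.4% and 18.4%, 6, 5 and 6 without library 9, 10 and 12 in turn called). After rescaling to a common sum, 2 glycolysis genes rose and 6 fell. The hexokinase HK2 (0.26) rose, and the phosphofructokinase PFKL (-0.32) and enolase ENO2 (-0.30) fell.

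Matrix and adhesion genes were lower more often than higher. Of 25 collagen-modifying and matrix genes, 5 rose, 13 fell and 7 did not pass the test (10 without library 11 called), and of 21 adhesion genes, 3 rose, 10 fell and 8 did not pass the test. CRTAP, a partner of collagen prolyl 3-hydroxylase (chromosome 3, 33113979 to 33147773), was at 29.1 and 29.3 FPKM at 100 nM and 67.5 and 71.6 FPKM in solvent, 2.38-fold lower (log2 change -1.22, SE 0.05, adjusted p = 1.81e-06). The hydroxylase of that complex, P3H1, was at 29.03 and 27.1 FPKM at 100 nM and 26.6 and 26.8 FPKM in solvent and was not called (log2 change 0.07, SE 0.08, adjusted p = 0.562). The 2 genes of this complex thus had different results. The heparan sulfate proteoglycans SDC3 (-1.28) and SDC1 (-1.05), the laminin chain LAMA5 (-0.98) and the integrin ITGB4 (-0.87) fell. TNC, tenascin C, was at 5.52 and 5.03 FPKM at 100 nM and 1.60 and 1.39 FPKM in solvent (log2 change 1.33, SE 0.13, adjusted p = 0.000178), and the laminin chain LAMB3 (0.48) and the hyaluronan receptor CD44 (0.44) rose.

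Of 24 epithelial junction and keratin genes, 2 rose, 12 fell and 10 did not pass the test (median -0.28). The tight junction protein CLDN4 was at 18.0 and 16.9 FPKM at 100 nM and 34.9 and 35.8 FPKM in solvent (log2 change -0.98, SE 0.06, adjusted p = 9.53e-06), and desmocollin DSC2 (-0.79), plakophilin PKP2 (-0.47) and CLDN3 (-0.49) fell, whereas keratin KRT19 rose (0.50). CDH1, E-cadherin, was at 3.49 and 3.54 FPKM at 100 nM and 3.65 and 3.52 FPKM in solvent and was not called (log2 change -0.02, SE 0.12, adjusted p = 0.909). SNAI2, a repressor of epithelial genes that stood in the mesenchymal marker list, was at 11.5 and 10.3 FPKM at 100 nM and 2.89 and 3.09 FPKM in solvent (log2 change 1.58, SE 0.08, adjusted p = 6.06e-06), and its relative SNAI1 rose (0.51). In that list 2 of 5 tested genes rose and 2 fell: the collagen COL1A1 (-0.50) and vimentin, VIM (-0.17), were lower. The call for COL1A1 ended without library 9, 10, 11 or 12 (0.203, 0.0607, 0.19 and 0.0703 in turn), without the filter on low values (0.11) and with a pseudocount of 0.1 (0.0539), and that for VIM without library 9, 10, 11 or 12 (0.0595, 0.0956, 0.0578 and 0.0944 in turn), adjusted p in parentheses. Of 17 Wnt targets, 2 rose, 6 fell and 9 did not pass the test (median -0.28), with SOX9 (-0.67), SOX4 (-0.58) and EPHB2 (-0.52) lower, the first 2 being transcription factors and the last a receptor kinase.

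Stress responses did not move as blocks. Of 22 heat shock genes, 3 rose, 9 fell and 10 did not pass the test. HSPA1B, an inducible chaperone near-identical to HSPA1A, was at 274 and 275 FPKM at 100 nM and 623 and 630.3 FPKM in solvent (log2 change -1.19, SE 0.03, adjusted p = 3.98e-07), its co-chaperone DNAJB1 was at 133 and 136 FPKM at 100 nM and 256 and 255 FPKM in solvent (log2 change -0.92, SE 0.03, adjusted p = 8.16e-07), and the constitutive chaperone HSPA8 fell (-0.47), while the small heat shock protein HSPB1 rose (0.26). Of 28 ATF4 response genes, 8 rose, 5 fell and 15 did not pass the test (7 rose and 10 fell after rescaling to a common sum). The reported counts are 28.6% higher and 17.9% lower, beside 15.4% and 18.4% of all genes. ATF4 itself (0.23), the death-linked factor DDIT3 (0.64), the glutathione-degrading enzyme CHAC1 (0.67) and the amino acid transporter chain SLC3A2 (0.61) rose, yet the serine and folate enzymes PSAT1 (-0.63) and MTHFD2 (-0.46) fell and ASNS, asparagine synthetase, was not called (-0.03, adjusted p = 0.716). Of 23 genes of endoplasmic reticulum stress, 4 rose, 7 fell and 12 did not pass the test (6, 7, 5 and 6 without library 9, 10, 11 and 12 in turn called), and the chaperone HSPA5 was not called (-0.10, adjusted p = 0.0915). Of 23 NRF2 targets, 5 rose, 8 fell and 10 did not pass the test. Of the 5, 1 was under 1 FPKM in all 4 solvent libraries of both times and entered through treated libraries alone. Sulfiredoxin SRXN1 (0.64), ferritin FTH1 (0.36) and thioredoxin TXN (0.27) were higher, and the exporter ABCC2 (-1.03) and the quinone reductase NQO1 (-0.42) lower.

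Of 32 genes of the p53 response, 8 rose, 5 fell and 19 did not pass the test (5 rose and 9 fell after rescaling to a common sum, and 7 without library 9 called). In that list 25% were higher and 15.6% lower, beside 15.4% and 18.4% of all genes. The death factor PMAIP1 was at 41.8 and 41.8 FPKM at 100 nM and 26.4 and 24.8 FPKM in solvent (log2 change 0.69, SE 0.05, adjusted p = 2.26e-05), and the exonuclease AEN (0.66), the growth arrest protein GADD45A (0.35) and the polo-like kinase PLK2 (0.37) rose, while CCNG1, cyclin G1 (-0.47), fell. Of 26 genes of the BCL2 family and apoptosis, 7 rose, 3 fell and 16 did not pass the test (6 and 6 without library 9 and 12 in turn called). Of these genes 26.9% were higher and 11.5% lower, but 6 rose and 6 fell after rescaling to a common sum. The survival protein BCL2L1 (-0.43) fell, and cytochrome c, CYCS, rose (0.40). MCL1, another survival protein, was at 56.9 and 54.2 FPKM at 100 nM and 60.8 and 58.5 FPKM in solvent and was not called (log2 change -0.10, SE 0.05, adjusted p = 0.119). Of 33 interferon-stimulated genes, 9 rose, 8 fell and 16 did not pass the test (6 rose and 10 fell after rescaling to a common sum). Of the 9, IFIT2 and OASL were under 1 FPKM in all 4 solvent libraries of both times. They entered the test through treated libraries alone, so the count is no measure over the list. Likewise, 1 of the 4 NF-kB targets below that rose entered through treated libraries alone. Of the tested NF-kB targets 26.7% were higher and 13.3% lower, and 3 rose and 3 fell after rescaling to a common sum. IFIT2, which binds viral RNA, was at 3.37 and 3.37 FPKM at 100 nM and 0.24 and 0.20 FPKM in solvent (log2 change 1.84, SE 0.10, adjusted p = 9.53e-06), and IFIT1 (0.93), OASL (1.13), IFI27 (0.94) and ISG15 (0.57) rose, but the signal transducer STAT2 (-0.57) and the membrane protein IFITM2 (-0.73) fell. Of 15 NF-kB targets, 4 rose, 2 fell and 9 did not pass the test (3 without library 9 called), with the ubiquitin-editing enzyme TNFAIP3 (0.62) higher and TNFAIP2 (-0.84) lower. Of 29 autophagy and lysosome genes, 5 rose, 4 fell and 20 did not pass the test, close to the shares of all genes (17.2% higher and 13.8% lower, beside 15.4% and 18.4%). After rescaling to a common sum, 3 rose and 8 fell. The ATG8 relatives MAP1LC3B (0.37) and GABARAP (-0.60) moved in opposite directions.

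Genes of ribosomes and mitochondria were shifted up by small amounts that depended on scaling. By median-of-ratios scaling, 43 cytosolic ribosomal, 44 mitochondrial ribosomal and 34 respiratory chain genes rose, and 0, 0 and 4 fell in turn. Rescaling to a common sum gave fewer that rose, as listed here. Of 83 cytosolic ribosomal protein genes, 34 rose, 0 fell (0 at an unadjusted p under 0.05) and 49 did not pass the test (median 0.16), but 9 rose and 1 fell after rescaling to a common sum, and 12, 21 and 16 without library 9, 10 and 11 in turn were called. Of 78 mitochondrial ribosomal protein genes, 38 rose, 2 fell and 38 did not pass the test (median 0.16), but 15 rose and 3 fell after that rescaling, and 18, 22, 21 and 24 without library 9, 10, 11 and 12 in turn were called. Of 81 nuclear-encoded respiratory chain genes, 31 rose, 4 fell and 46 did not pass the test (median 0.13), but 4 rose and 7 fell after rescaling, and 11, 14, 15 and 16 without library 9, 10, 11 and 12 in turn were called. SDHA, the flavoprotein of complex II, went against its list, at 51.7 and 53.1 FPKM at 100 nM and 84.6 and 84.5 FPKM in solvent (log2 change -0.68, SE 0.05, adjusted p = 2.36e-05). Of 13 mitochondrially encoded genes, 9 rose, 0 fell (0 at an unadjusted p under 0.05) and 4 did not pass the test (median 0.30, 4 and 4 without library 10 and 11 in turn called), among them MT-ND6 (0.63) and MT-CYB (0.58), subunits of complexes I and III.

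Over protein-coding nuclear genes as a whole, the median change varied with transcript length. Among 11647 protein-coding nuclear genes, the median change fell from 0.18 for the 326 with a longest transcript of up to 1000 nt, of which 32.8% were higher and 5.83% lower, to -0.15 for the 973 over 8000 nt, of which 6.78% were higher and 29.9% lower. The same order of medians ran from 0.09 to -0.08 for 20 nM at 24 h, which shares the solvent libraries, and from 0.05 to -0.09 for 100 nM at 16 h, which does not. The part of length in the results for short genes, ribosomal protein genes among them, and in the falls of genes with long transcripts was not tested.

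**Figure D3:**
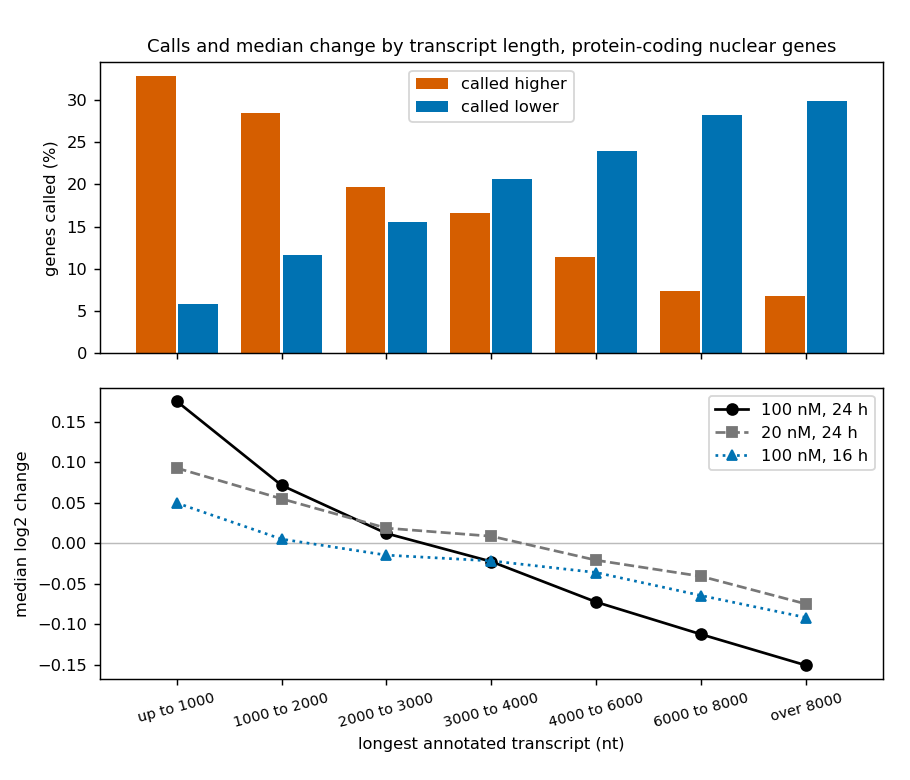
Top, percent of protein-coding nuclear genes called higher or lower at 100 nM against solvent at 24 h in 7 bins of longest annotated transcript (nt). Bottom, median log2(FPKM + 1) change in the same bins for 100 nM at 24 h, 20 nM at 24 h and 100 nM at 16 h, each against solvent of the same time, where the line for 100 nM at 24 h goes from 0.18 in the shortest bin to -0.15 in the longest.

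Outside the lists, the named genes with the largest changes were few. VGF, a secreted neuropeptide precursor (chromosome 7, 101162509 to 101165593), was at 20.5 and 21.3 FPKM at 100 nM and 3.68 and 3.59 FPKM in solvent (log2 change 2.24, SE 0.08, adjusted p = 7.23e-07). OLFM2, an olfactomedin family secreted protein, was at 1.71 and 1.5 FPKM at 100 nM and 6.39 and 6.34 FPKM in solvent (log2 change -1.50, SE 0.10, adjusted p = 2.08e-05), and GMPR, GMP reductase of purine salvage, was at 3.24 and 3.74 FPKM at 100 nM and 11.2 and 11.7 FPKM in solvent (log2 change -1.47, SE 0.10, adjusted p = 2.33e-05). Groups were apart for all 3, which the rule that named them required. The ubiquitin ligase NEURL1B (-1.46), the membrane raft protein FLOT2 (-1.43) and the actin-bundling protein TRIOBP (-1.28) fell. By level, PTMA, the nuclear protein prothymosin alpha, fell most among protein-coding nuclear genes, from 3259.9 and 3516 FPKM in solvent to 2187 and 2158 FPKM at 100 nM (log2 change -0.64, SE 0.04, adjusted p = 1.98e-05). Of 28 known long noncoding RNAs, 8 rose, 1 fell and 19 did not pass the test: H19, an imprinted transcript, was at 0.68 and 0.84 FPKM at 100 nM and 4.05 and 3.26 FPKM in solvent (log2 change -1.40, SE 0.15, adjusted p = 0.000242), and MALAT1 (0.57), PVT1 (0.53), CYTOR (0.61) and SNHG15 (0.59) rose. Some noncoding entries switched between listed 0 and a level. The pseudogene RPS26P6 was listed at 0 in every library but 9 and 10, where it was at 21.6 and 38.5 FPKM, and the small RNA entry RF02164 was at 94.2 and 109 FPKM in solvent at 24 h and listed at 0 at 100 nM. BCYRN1, a short cytoplasmic RNA, was at 395 and 430.2 FPKM at 100 nM and 609.7 and 719 FPKM in solvent, but listed at 0 in both 20 nM libraries of 24 h and in both solvent libraries of 16 h. A listed 0 can be a failed estimate, so no fold is given for these.

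Whether the effect of 100 nM differed between 24 h and 16 h was tested as the difference of both effects, which share no library. It was called for 1368 genes (10.2%), of which 790 (5.87%) had the higher effect at 24 h and 578 (4.29%) the lower. Of the 1368, 588 were called against solvent at 24 h only and 394 at 16 h only, 195 at both times with the same sign and 168 with opposite signs, and 23 at neither. Leaving out 1 library gave 632 to 966 genes. Mitotic genes went from mixed to lower. Of the genes of mitotic entry and exit 17 rose and 13 fell at 16 h and 6 and 22 at 24 h, and 22 had a lower effect at 24 h and 4 a higher one. Of the genes of mitotic chromosomes and spindle, 28 had a lower effect at 24 h and 1 a higher one (called: 19, 19 and 18 without library 4, 10 and 12 in turn). CCNB1 had log2 changes of 0.78 at 16 h and 0.16 at 24 h (difference -0.62, adjusted p = 0.000682). FAM83D went from -0.62 to -1.41 (difference -0.79, adjusted p = 0.000287), and the cytoskeletal linker GAS2L3 from 0.45 to -0.67 (difference -1.12, adjusted p = 0.000376). CDK1, by contrast, was lower at both times, by -1.31 and -0.86, and its fall was the smaller at 24 h (difference 0.45, adjusted p = 0.00906).

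Replication genes moved the other way. In that list 1 gene rose and 27 fell at 16 h, and 23 had a higher effect at 24 h and 0 a lower one (limma, 1 at an unadjusted p under 0.05). The licensing factor CDC6 was at 69.4 and 66.1 FPKM at 100 nM and 130.5 and 120.3 FPKM in solvent at 16 h and at 140.0 and 139 FPKM at 100 nM and 130.4 and 118 FPKM in solvent at 24 h, log2 changes of -0.88 and 0.17 (difference 1.05, adjusted p = 0.000443). CCNE2 went from -1.32 to 0.63 (difference 1.95, adjusted p = 0.000162), and PCNA from -0.55 to 0.02 (difference 0.57, adjusted p = 0.00122). In the AP-1 and immediate early list 7 genes rose and 11 fell at 16 h. That list had 15 higher effects at 24 h and 0 lower (limma, 0 at an unadjusted p under 0.05), and histones 15 and 0 (limma, 0 at an unadjusted p under 0.05). Of the 25 tested histone genes, 7 were under 1 FPKM in all 4 solvent libraries of both times. The same held for 3 of the AP-1 and immediate early genes that rose at 24 h. These entered the test through treated libraries alone, so both time counts are no measure over their lists. HIST1H2BK was at 43.8 and 39.6 FPKM at 100 nM and 24.6 and 22.7 FPKM in solvent at 16 h, a log2 change of 0.79 against 3.24 at 24 h (difference 2.45, adjusted p = 0.00124). IER3 (0.86), DUSP6 (1.117), the NF-kB inhibitor NFKBIA (0.83) and VGF (1.62) also had higher effects at 24 h (differences). At 16 h DUSP6 was at 13.2 and 13.4 FPKM at 100 nM and 29.1 and 31.6 FPKM in solvent. NFKBIA was at 15.0 and 14.3 FPKM at 100 nM and 29.3 and 28.4 FPKM in solvent at 16 h. Neither DUSP6 nor NFKBIA was called against solvent at 24 h. Lower effects at 24 h were found for HSPA8 (-0.80), which rose at 16 h (0.33) and fell at 24 h (-0.47), and for FDFT1 (-0.48). In the cholesterol list 11 had a lower effect at 24 h and 0 a higher one (limma, 0 at an unadjusted p under 0.05; called: 6, 6, 4, 7, 5, 6 and 5 without library 4, 5, 6, 9, 10, 11 and 12 in turn).

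**Figure D4:**
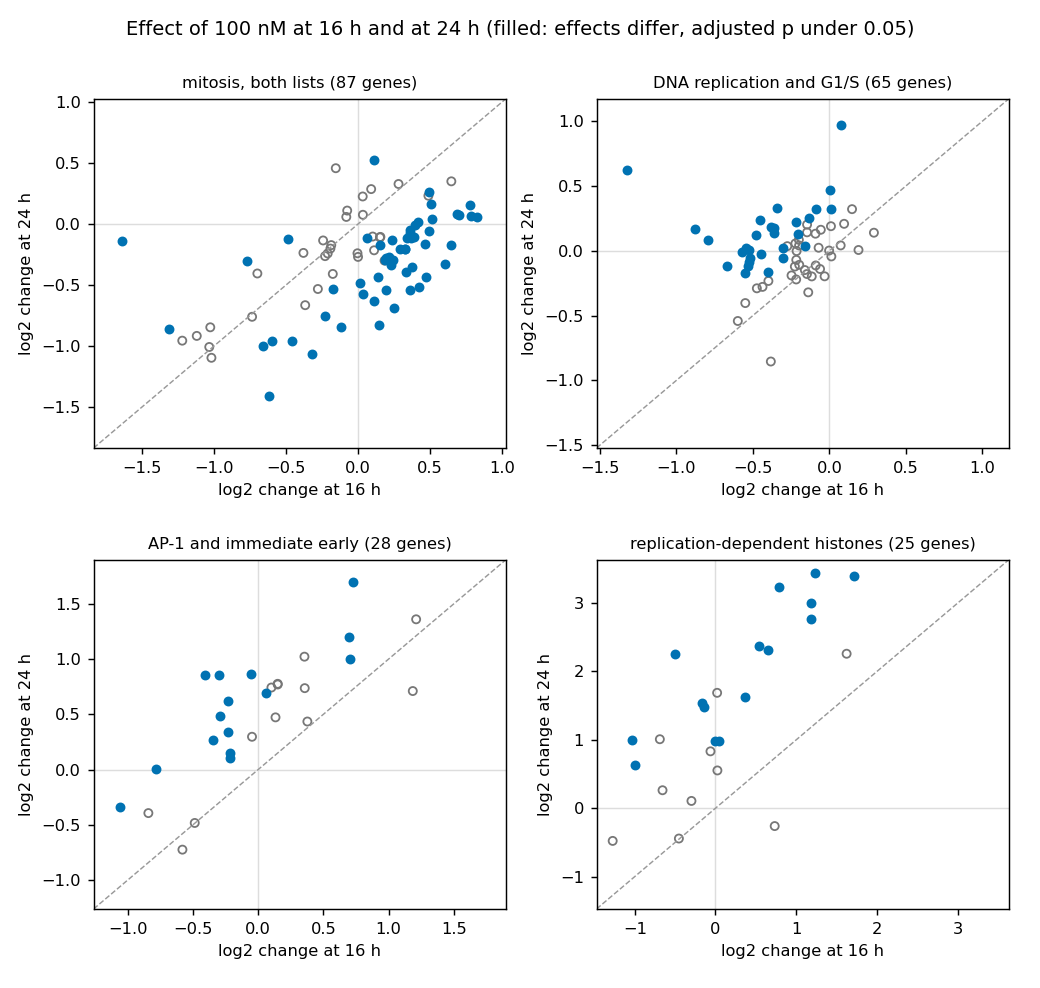
Log2(FPKM + 1) change of 100 nM against solvent at 16 h (horizontal) and at 24 h (vertical) in 4 panels of gene lists, one point per tested gene, filled where the effects differed, with a dashed line of equal change. Most filled points lie below the line for mitosis and above it for replication with G1/S, AP-1 with immediate early genes, and histones.

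The 100 nM libraries were also tested against those of 20 nM at 24 h, a comparison that leaves the solvent libraries out of its difference. Of 13458 genes 657 (4.88%) were called, 245 (1.82%) higher and 412 (3.06%) lower at 100 nM. This count depended on which libraries were in the fit: it was 9 with the 24 h libraries alone and 4 with only the 4 libraries compared. It also moved widely when library 7, 8, 9 or 10 was left out. The cause of these moves was not tested. Both comparisons use libraries 9 and 10. FAM83D was at 35.0 and 35.2 FPKM at 20 nM, between solvent and 100 nM (difference -0.61, adjusted p = 0.000876). FLOT2 was at 27.5 and 27.3 FPKM (difference -0.56, adjusted p = 0.0011) and CDK1 at 49.5 and 49.2 FPKM (difference -0.54, adjusted p = 0.00264), also between both. TUBB was at 753 and 788 FPKM (difference -0.42), TUBA1C at 878 and 932 FPKM (-0.42) and TOP2A at 39.6 and 43.5 FPKM (-0.60), again between both. MYL9, at 55.3 and 48.0 FPKM, stood at the solvent level with 20 nM (difference 0.58). All 7 lost their call with only the 4 libraries compared (adjusted p = 0.216), and TUBB, TUBA1C, TOP2A and MYL9 also with the 24 h libraries alone (adjusted p = 0.0641). HIST2H2AA4 was at 111 and 117 FPKM at 20 nM (difference 0.06, SE 0.10, adjusted p = 0.761), and 0 of the 25 histone genes were called between doses (limma, 1 higher and 4 lower at an unadjusted p under 0.05), although 5 were called lower at 100 nM without library 7.

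**Figure D5:**
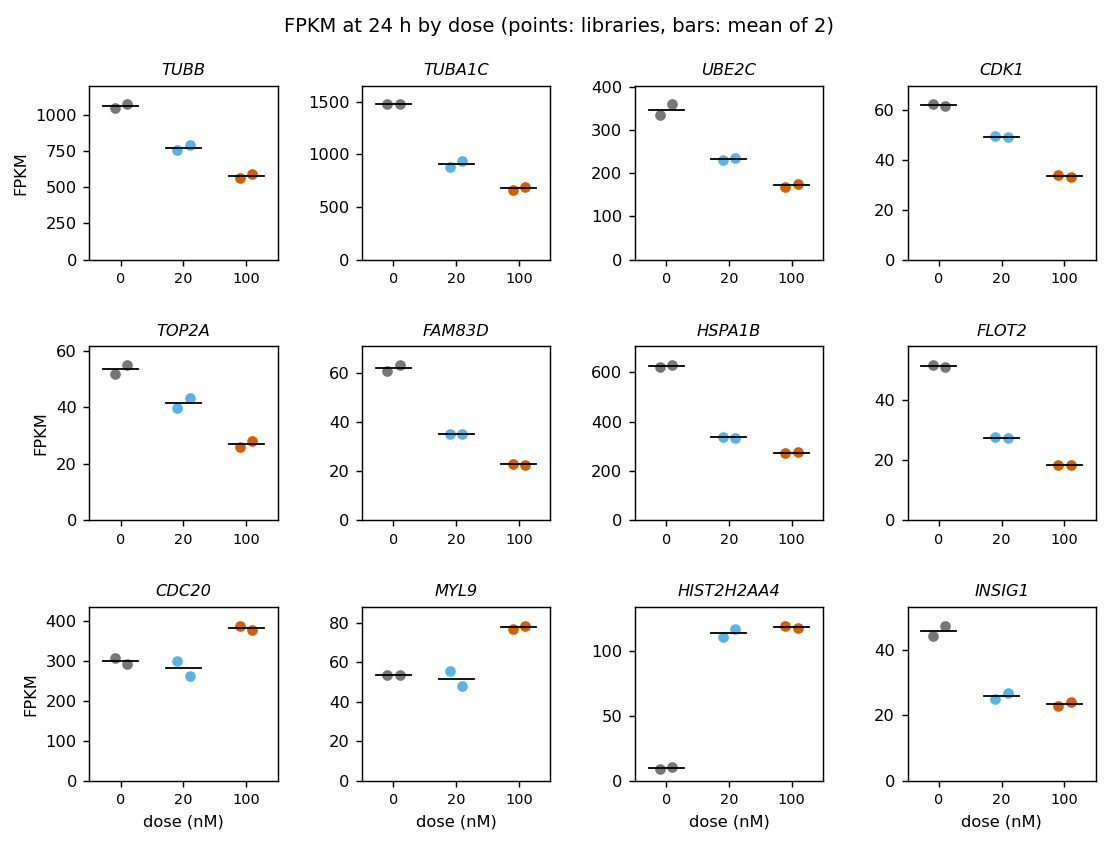
FPKM at 24 h in solvent (dose 0), 20 nM and 100 nM, one panel per gene with its own axis from 0, points for the 2 libraries of each group and a bar at their mean. FAM83D, CDK1, TUBB and TUBA1C step down from solvent to 20 nM to 100 nM, and MYL9 is higher at 100 nM than in the other groups.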

How the data were processed

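RNA of HCT116 cells was sequenced in 12 libraries, and the 4 libraries of 100 nM and of solvent at 24 h were compared. Per the labels' protocols, RNA with an integrity number of at least 7 (1000 ng a sample) was poly(A)-selected, made into directional libraries and read with 100 cycles per end. The authors deposited 1 table of FPKM per gene and library for 58174 genes, made with RSEM 1.2.28 on the GRCh38 build per the submitters' processing notes. Which aligner, annotation and strand setting were used is not given in the sources used here. Values of antisense or overlapping genes and of near-identical copies are therefore uncertain. The table has no counts, its lowest value above 0 is 0.01, and depth is unknown, so precision rests on the spread between libraries. Columns name dose, time and a library number, and the labels' sample numbers are not among them, so each library was an unpaired member of its group. GENCODE 29 gave symbols, types, positions and lengths for 57836 genes, and 338 had no symbol.

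The test covered 13458 genes (11660 protein-coding) that reached 1 FPKM in 2 or more of 12 libraries. In R 4.3.3, limma 3.58.1 was fitted to log2(FPKM + 1) of all libraries with 6 group means and a mean-dependent prior (6 residual and 2.98 prior degrees of freedom). Two-sided p-values were adjusted over all tested genes by Benjamini-Hochberg, and genes were called under 0.05. The same fit tested the difference between the effects at 24 h and 16 h and 100 nM against 20 nM at 24 h. Data were simulated for 100 nM against solvent at 24 h (13458 genes, 200 of them changed, 5 draws). The fit found 97.0% of the 1.5-fold and 100% of the 2-fold and 4-fold changes, and 4.23% of its calls were false. There the spread of a gene depended on its mean level alone, and low genes were never changed. In the data 4550 genes were called, low ones among them, so these rates need not hold for the calls reported.

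The comparison, the 41 gene lists and the rules were chosen with earlier results of these data known. Named genes were the 12 largest increases and decreases among called genes with non-overlapping groups and a higher mean of at least 2 FPKM, the 6 largest changes of level each way, the first 2 entries of each list and its up to 4 largest changes each way, and the 5 largest each way for time and dose. From these a subset was named, and other members were chosen after their values were seen: CDX1, CDX2, CEACAM5, PTPRC, CD3D, MS4A1, FCGR3A, HIST1H4C, HIST2H2AC and remaining list members. Promoter windows (250 bases before to 50 after the start, RefSeq, GRCh38.p14) were matched for 9919 tested genes through Entrez identifiers. Alternatives were pseudocounts of 0.1 and 0.5, no filter, a minimum of 5 FPKM, rescaling to a common sum, median-of-ratios scaling, a constant prior, fewer libraries in the fit, protein-coding genes only and leaving out each library. Rescaling over nuclear genes was added after the data were seen. A few genes are not reported here.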

Additional observations from a re-analysis of the deposited data

Results flagged for a closer look

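The effect of 100 nM differed between 24 h and 16 h, by a test of the difference itself, for 1368 genes. Of the genes named above, the effect at 24 h was higher than that at 16 h for HIST1H2BK (2.45), CCNE2 (1.95), VGF (1.62), DUSP6 (1.117), CDC6 (1.05), IER3 (0.86), NFKBIA (0.83), PCNA (0.57) and CDK1 (0.45), as differences of log2 changes. It was lower for GAS2L3 (-1.12), HSPA8 (-0.80), FAM83D (-0.79), CCNB1 (-0.62) and FDFT1 (-0.48). Of these, HSPA8, IER3, CCNE2 and GAS2L3 were called in opposite directions at the 2 times, with log2 changes at 16 h of 0.33, -0.23, -1.32 and 0.45 and at 24 h of -0.47, 0.62, 0.63 and -0.67.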

How the results depend on the processing

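No paired analysis was possible because the labels' sample numbers do not stand in the columns, which carry library numbers. For 100 nM against solvent, leaving out 1 library gave 2757 to 3048 genes, 1166 to 1413 higher and 1591 to 1659 lower, and rescaling to a common sum gave 1146 higher and 3728 lower. For the change between times, leaving out 1 library gave 632 to 966 genes, 358 to 545 higher and 251 to 421 lower, and the lower count was 903 after rescaling to a common sum and 875 over nuclear genes. The higher share of these calls was 57.7%, and 37.7% and 39.9% after those rescalings. For 100 nM against 20 nM, leaving out 1 library gave 42 to 1511 genes, 10 to 789 higher and 32 to 722 lower. That count was 9 with the 24 h libraries only (4 higher, 5 lower), 4 with only the libraries compared (3 and 1), 411 with a constant prior (127 higher) and 334 without the filter (125 and 209). Rescaling to a common sum gave 796 higher and 166 lower between doses, and median-of-ratios scaling gave 392 higher. The share of higher calls for 100 nM against solvent was 45.6%, and 23.5%, 53.2% and 30.1% after rescaling to a common sum, by median-of-ratios and over nuclear genes. The cause of these moves was not tested.

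For 100 nM against solvent at 24 h, counts called in the tubulin, mitotic, histone, cholesterol, AP-1 and hypoxia lists stayed within 1.5 times under the alternatives run. Counts of some of these lists for the change between times and between doses did not. Of the named genes, TUBB2A, CCNB1, EPCAM, ARNT2, COL1A1 and VIM lost their call against solvent under some setting, and none turned direction while called. MAP4, MCL1, HSPA5 and NFKBIA, not called as reported, were called lower after rescaling to a common sum (adjusted p = 0.00312, 0.0115, 0.0103 and 0.0245), and CDC6 was called higher without library 11 (0.0474) and by median-of-ratios (0.0369). BCYRN1 was called lower with the 24 h libraries only (0.00763). Depth cannot be given, so low genes and listed zeros carry no counting limit.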
